A study of Mus musculus with 8 samples.

Results

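The genes described here are 10 members of the Bcl2 family of apoptosis regulators: Bcl2, Bcl2l1, Bcl2l2, Mcl1, Bak1, Bok, Bcl2l11, Bad, Bid and Bmf. They were chosen by gene name, through the Ensembl identifiers that the mm9 GENCODE annotation pairs with these symbols, and not by any measured value. Earlier results of these data were known at the time. All 10 were found among the 50686 genes of the count table, and all 10 passed the filter on low counts. The samples were mouse embryonic stem cells (mESCs), wild type (R9wt) or Rad9-/- (R9del), cultured for 1 day (D1) or 5 days (D5) in space on a recoverable satellite or on the ground in the same type of payload. With 3 variables of 2 levels there were 8 conditions and 1 mRNA library for each, so every group comparison set 4 libraries against 4, and all of them use the same 8 libraries. Rad9 is a DNA damage checkpoint protein, and the number of independent Rad9-/- clones behind the R9del libraries is not given in the sources used here. All cells were grown in closed culture devices and fixed in RNAlater before extraction with TRIzol. The D1 and D5 devices sat in separate groups with their own temperature control. The number of cells seeded differed between D1 and D5 and, at D5, between the genotypes. Culture duration, genotype at D5 and the interaction of genotype and culture duration thus cannot be told apart from these differences. The space cultures also met microgravity, space radiation, other stress in space and vibration at launch and return, which the ground cultures did not. Space against ground cannot tell these apart. P-values measure only the spread between these 8 libraries.

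Proteins of the Bcl2 family decide whether the outer mitochondrial membrane is opened, the step that releases cytochrome c and starts the caspase cascade. The anti-apoptotic members bind and restrain both the pore-forming effectors and the BH3-only proteins, which carry stress signals to the family. Members of all 3 classes carry a short helix called the BH3 domain, which takes part in binding between members. Pluripotent cells are known for a low threshold for mitochondrial apoptosis. Many members are also regulated by splicing, translation and protein turnover, which counts of reads per gene do not show.

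The BH3 core is a sequence feature that the 10 members share, and it is shown here for that reason. A pattern of 6 codons (leucine or methionine, then any 3 residues, then glycine, alanine or serine, then aspartate) was searched on the coding strand in the longest coding sequence of each gene in the mm9 GENCODE transcripts. It occurred exactly once in all 10 members, and in 24.3% of the 21918 genes with a complete start it also occurred exactly once, so the pattern alone does not mark the family, and it does not separate the roles. Each stretch below is 30 coding bases, 5′ to 3′, with the 18 bases of the core in capitals.
Bcl2: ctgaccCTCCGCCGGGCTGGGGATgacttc
Bcl2l1: caagcgCTGAGAGAGGCAGGCGATgagttt
Bcl2l2: caagccATGCGGGCTGCTGGAGACgagttt
Mcl1: gagaccCTGCGGCGCGTGGGCGACggcgtg
Bak1: cggcagCTTGCTCTCATCGGAGATgatatt
Bok: acagtgCTGCTGCGCTTGGGAGATgagctg
Bcl2l11: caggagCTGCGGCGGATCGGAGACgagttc
Bad: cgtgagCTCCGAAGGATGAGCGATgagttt
Bid: agacatCTCGCCCAAATAGGCGATgagatg
Bmf: agaaagCTTCAGTGTATTGCAGACcagttc
Of the 18 core bases, 3 were identical in all 10 members, the positions 2, 16 and 17 counted from the first capital. The search pattern itself fixes these 3 bases. Every codon of leucine or methionine has T as its second base, and every aspartate codon begins with GA. Their identity is therefore no observation of conservation. The core began with leucine in 9 of the 10 members, Bcl2l2 being the exception. Between members the cores shared from 5 bases (Bcl2l1 and Bmf, and Bcl2l2 and Bid) to 14 bases (Mcl1 with Bok and with Bcl2l11). These counts include the 3 bases that the pattern fixes. The core lies at residues 94 to 99 of the 236 coded in Bcl2, at 194 to 199 of 331 in Mcl1, at 71 to 76 of 213 in Bok and at 224 to 229 of 271 in Bmf. On the mm9 genome the printed stretches of the members described most closely below are at chr2:152655436-152655465 on the minus strand for Bcl2l1 and at chr3:95463353-95463382 on the plus strand for Mcl1. The Bok stretch spans chr1:95583228-95585744 on the plus strand and is interrupted by 1 intron. A read counted on a gene need not include these bases. The whole genes lie at chr1:95582271-95592339 for Bok (ENSMUSG00000026278), chr2:152593052-152657464 for Bcl2l1 (ENSMUSG00000007659), chr3:95462643-95467099 for Mcl1 (ENSMUSG00000038612) and chr2:118354493-118375423 for Bmf (ENSMUSG00000040093).

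Per kilobase of exon, the anti-apoptotic class held both ends of the range of levels among the 10 members. Levels are given as CPM, counts relative to the library total scaled with TMM factors, and, where genes are compared with each other, as CPM per kilobase. Mcl1, a short-lived anti-apoptotic protein on which early embryonic cells depend, was the highest at 57.2 ± 12.9 CPM per kilobase (SD over the 8 libraries). Bid, the BH3-only protein that caspase 8 cleaves, followed at 32.1 ± 5.73 CPM per kilobase. The order between them held in 7 of the 8 libraries.

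In the middle stood 3 genes whose levels overlapped: Bcl2l1, which codes for the anti-apoptotic protein Bcl-xL, at 20.0 ± 8.36 CPM per kilobase, the pore-forming effector Bak1 at 15.7 ± 3.08 and Bok, an effector relative that can act without the others, at 15.2 ± 9.55. Bcl2l1 was above Bak1 in 6 libraries and Bak1 above Bok in 5, so these neighbours did not differ beyond their spread. The BH3-only genes Bad, Bcl2l11 and Bmf came next at 5.89 ± 1.57, 3.44 ± 0.792 and 2.31 ± 0.663 CPM per kilobase. Bad codes for a sensitizer controlled by growth factor signalling, Bcl2l11 for Bim, an activator of the effectors, and Bmf for a sensitizer linked to the cytoskeleton. Lowest were Bcl2l2, coding for Bcl-w, at 0.752 ± 0.249 and Bcl2 itself, the founding member, at 0.0721 ± 0.032 CPM per kilobase.

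Bcl2 was counted in every library but at a low depth, from 13 counts in the ground R9wt D5 library to 69 counts in the ground R9del D5 library. Its level was between 0.144 CPM (exact 95% Poisson interval 0.0767 to 0.246) and 0.931 CPM (0.725 to 1.18) in these 2 libraries, and the other 6 lay between 0.318 and 0.605 CPM. The intervals cover counting error only. The 2 extreme libraries are both ground D5 libraries, and the intervals of the other 6 overlapped each other.

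**Figure D1:**
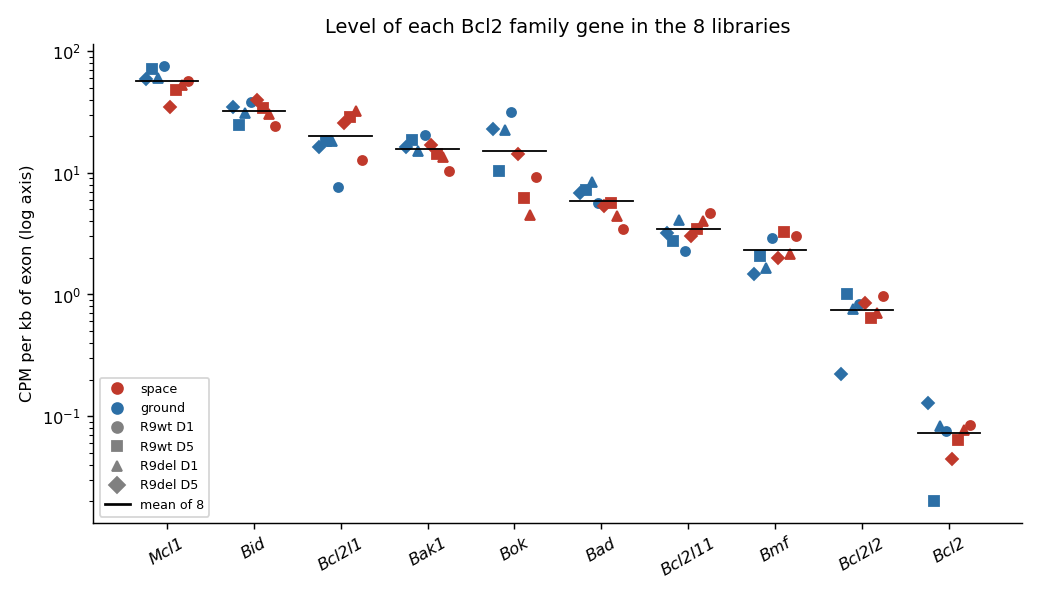
Level of each gene in CPM per kilobase of exon (log axis), ordered by the mean of the 8 libraries (black line). Points are single libraries, red for space and blue for ground, with the symbol giving genotype and culture duration. Mcl1 is highest at a mean of 57.2 and Bcl2 lowest at 0.0721, and the Bok points are spread most widely among the genes above 5 CPM per kilobase.

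The spread across libraries differed between members. Bok was the most variable, with a coefficient of variation of 62.8% and a 7.01-fold range from 6.46 to 45.3 CPM. Bcl2l1 had a coefficient of variation of 41.7% and a 4.22-fold range. Bid varied least, at 17.8% and a 1.63-fold range, followed by Bak1 at 19.7% and Mcl1 at 22.5%. In bulk RNA a lower value can come from fewer cells that express a gene or from less RNA per cell, and these cannot be told apart.

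Library totals lay between 58238440 and 96416907 counts, TMM factors between 0.9355 and 1.041, and a count of 0 allows a level of up to 3 counts, or 0.0333 to 0.0502 CPM. Rad9a, the targeted gene, had 69.8 to 92.7 CPM in the 4 R9wt libraries and 20.8 to 28.3 CPM in the 4 R9del libraries (log2 fold change -1.78, SE 0.21, adjusted p = 0.0259, edgeR's quasi-likelihood test). Reads on Rad9a were thus fewer but not absent in R9del, and 10.9% of its exon length overlaps Ppp1ca. All 10 mESC markers averaged at least 1 CPM and their sum was 4660 to 8160 CPM. The sum of 6 trophoblast markers was 387 to 2480 CPM at D5 and 131 to 272 CPM at D1, the sum of 3 neural markers was 101 to 132 CPM in R9del and 26.3 to 46.1 CPM in R9wt, and the fibroblast markers summed to 24.9 to 65.7 CPM with 4 of 8 averaging at least 1 CPM. The sum of 8 primitive endoderm markers was 122 to 773 CPM in space and 119 to 190 CPM on the ground, and 152 to 773 CPM at D5 and 119 to 267 CPM at D1. A few genes held much of the trophoblast, neural and endoderm sums. Over the 8 libraries Krt18 had 79.8 to 1780 CPM and Krt8 34.6 to 588 CPM, while Gata3 reached 85.7 CPM and Cdx2 2.9 CPM. Tubb3 had 6.48 to 115 CPM, Nes 14.7 to 35.6 CPM and Pax6 at most 2.76 CPM. Lama1 had 88.5 to 551 CPM and Dab2 6.87 to 138 CPM.

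Some of these markers differed between space and ground, the comparison that comes first. Lama1 and Pdgfra, markers of primitive endoderm, were higher in all 4 space libraries than in their partners but did not pass (adjusted p = 0.083 and 0.0887, edgeR), while Sox17 fell in space, from 2.43 to 6.06 CPM on the ground to 0.062 to 0.764 CPM (adjusted p = 0.0179). The values by location of the other markers of this list, Gata4, Gata6, Sox7, Foxa2 and Dab2, are not given here. The 3 named genes thus do not show how the list as a whole differed. Of the mESC markers Esrrb rose, with 74.7 to 115 CPM in space and 34.9 to 47.3 CPM on the ground (adjusted p = 0.0077), and Sox2 fell, with 87.8 to 124 CPM in space and 150 to 251 CPM on the ground (adjusted p = 0.0263). Utf1 and Fgf4 were lower in all 4 pairs without overlap (log2 fold changes -0.84 and -1.07) but did not pass (adjusted p = 0.0632 and 0.0575, edgeR). Nanog and Tdgf1 were at 0.64 and 0.17, and Pou5f1, Zfp42, Klf4 and Dppa5a at -0.24, -0.88, -0.39 and -0.47, and none of these passed. The sum of the mESC markers was 4660 to 6130 CPM in space and 5490 to 8160 CPM on the ground. Cdx2, a trophoblast marker, also fell, from 0.655 to 2.9 CPM on the ground to 0.067 to 0.374 CPM in space (adjusted p = 0.0327). Eomes, Gata3, Krt8 and Krt18 had log2 fold changes of 0.45, 1.34, 0.64 and 0.22 in space and did not pass (adjusted p = 0.478 to 0.945), Elf5, too low to be tested, had 0.117 to 0.423 CPM in space and 0.0 to 0.111 CPM on the ground, and the sum of the list was 172 to 2480 CPM in space and 131 to 1670 CPM on the ground. The part of such shifts in the space and ground values of the Bcl2 family below was not tested.

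The first comparison asked how the family differed between space and ground. Mcl1 was lower and Bcl2l1 higher in every space library than in the ground library it is matched with by genotype and duration. The effector Bok was lower in every pair, and the anti-apoptotic genes Bcl2l2 and Bcl2 had 2 pairs higher and 2 lower each. The share of all genes with the same direction in every pair is not given here. None of the 10 members passed an adjusted p of 0.05 in the quasi-likelihood (QL) test of edgeR, adjusted by Benjamini and Hochberg, beside 6.28% of all 20544 genes tested. At an unadjusted p under 0.05, 2 members were called, Mcl1 and Bok, both lower in space, where 18.8% of all genes were called. By the threshold of the study (2-fold or more with an unadjusted p under 0.05) 1 member, Bok, was lower, with a background of 8.11% of genes, and 0 were higher, with a background of 2.73%. The median log2 fold change of the members was -0.10, against 0.03 over all genes tested. With the matched pairs as a block, 2 members passed an adjusted p of 0.05, Bcl2l1 and Bok, beside 8.69% of all genes.

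Bok had the largest difference between space and ground. Its level was 13.2 CPM in space and 45.3 CPM on the ground in R9wt at D1, 6.46 and 32.4 CPM in R9del at D1, 8.93 and 14.7 CPM in R9wt at D5, and 20.5 and 32.7 CPM in R9del at D5. Every space library was below its ground partner, to 0.2 of it in R9del at D1, 0.291 in R9wt at D1, 0.607 in R9wt at D5 and 0.626 in R9del at D5, but the groups overlapped, because the R9del D5 space library was above the R9wt D5 ground library. The log2 fold change was -1.35 (SE 0.43, 95% CI -2.31 to -0.39) with an adjusted p of 0.109 in edgeR's QL test. With the matched pairs as a block it was -1.37 (SE 0.34) with an adjusted p of 0.0456, and over all alternatives the adjusted p lay between 0.0355 and 0.283. Bok passed 0.05 when the ground R9wt D5 library, the lowest of the ground libraries, was left out (log2 fold change -1.58, adjusted p 0.0493).

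Bok and Bad were both in the highest of 10 equal bins of genes by transcript GC content, at 60.9% and 61.3%. In that bin of 1558 genes the median log2 fold change between space and ground was -0.41, with quartiles of -1.17 and 0.05, while in the other bins the median lay between -0.22 and 0.22. Bok was below the lower quartile of the bin, and Bad, at -0.57, was within the quartiles. The part of GC content in these values was not tested.

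Bcl2l1 was higher in space by a similar ratio in every pair. Its levels in space and on the ground were 60.1 and 36.2 CPM in R9wt at D1, 153 and 86.0 CPM in R9del at D1, 137 and 87.1 CPM in R9wt at D5, and 122 and 77.3 CPM in R9del at D5. The space library was 1.57 to 1.78 times its partner in all 4 pairs, and the groups overlapped through the R9wt D1 space library alone, whose 60.1 CPM fell within the ground range. Without the pairing the log2 fold change was 0.72 (SE 0.35, 95% CI -0.06 to 1.5, adjusted p = 0.308 in edgeR's QL test). The block left the size at 0.72, lowered the standard error to 0.17 (95% CI 0.34 to 1.10) and gave an adjusted p of 0.0367. Over all alternatives the adjusted p lay between 0.0367 and 0.538.

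Mcl1 was the member whose space and ground libraries did not overlap, as was the case for 14.6% of all genes tested. Its space levels were 196 CPM in R9wt at D1, 182 in R9del at D1, 168 in R9wt at D5 and 122 in R9del at D5, against ground levels of 264, 211, 250 and 204 CPM in the same order. The highest space library was just below the lowest ground library. The log2 fold change of -0.47 (SE 0.20, 95% CI -0.92 to -0.03) had an adjusted p of 0.234 in edgeR's QL test, and the adjusted p lay between 0.0962 and 0.449 over the alternatives. Mcl1 did not pass an adjusted p of 0.05 under any of them.

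Among the BH3-only genes, Bad was lower in space in all 4 pairs, with 6.99 to 11.4 CPM in space and 11.4 to 16.8 CPM on the ground (log2 fold change -0.57, SE 0.27, adjusted p = 0.295 in edgeR's QL test). Bmf was higher in all 4 pairs, with 10.5 to 17.0 CPM in space and 7.68 to 15.2 CPM on the ground (0.37, SE 0.31, adjusted p = 0.609). When single libraries were left out the log2 fold change of Bmf lay between 0.26 and 0.59. The space and ground ranges of both genes overlapped, and neither passed the test.

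Bcl2l11 was 2.07 times as high in space in R9wt at D1, at 37.7 against 18.2 CPM, and between 0.953 and 1.26 times in the other 3 pairs. In the same R9wt D1 pair Bak1 was at 25.1 CPM in space and 48.9 CPM on the ground, a ratio of 0.512, while the other 3 ratios were 0.77 to 1.05. For both genes the large difference was therefore that of 1 pair. Bid had a log2 fold change of -0.01 (95% CI -0.49 to 0.48), with 2 pairs higher and 2 lower. Its interval leaves out changes of 1.5-fold and more in either direction.

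Bcl2l2 and Bcl2 showed no common direction, with 2 pairs higher and 2 lower each. The ground R9del D5 library stood out for both, with the lowest Bcl2l2 level, 0.999 CPM where the other 7 libraries had 2.88 to 4.53 CPM, and the highest Bcl2 level, 0.931 CPM. Without this library the log2 fold change in space turned from 0.17 to -0.11 for Bcl2l2 and from -0.19 to 0.18 for Bcl2.

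**Figure D2:**
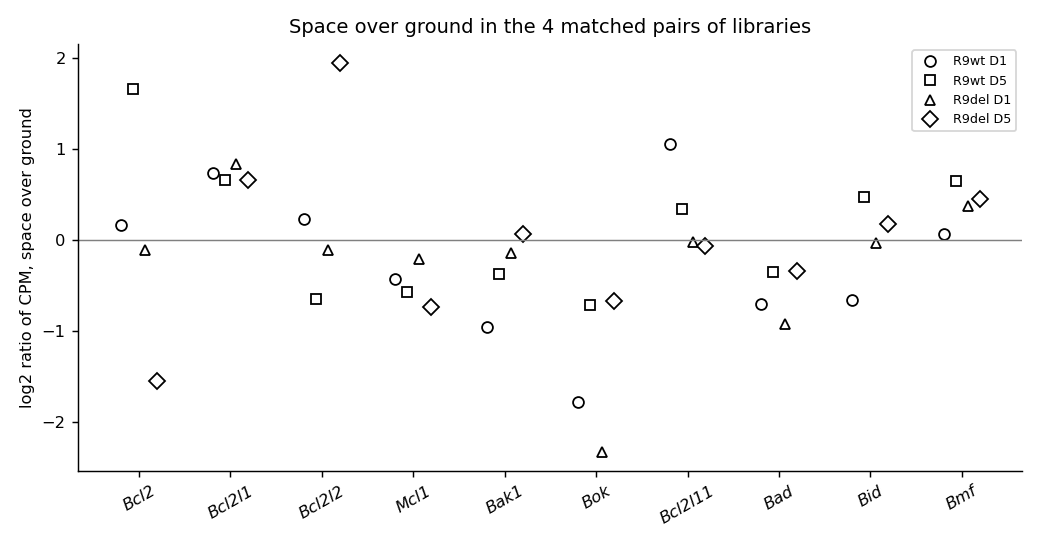
Log2 ratio of CPM in space over CPM on the ground for each gene in the 4 matched pairs of libraries, with the symbol giving genotype and culture duration and the line at 0 marking equal levels. Bcl2l1 and Bmf are above 0 in all 4 pairs, Mcl1, Bok and Bad below 0 in all 4, and the Bcl2 and Bcl2l2 points at D5 fall far on opposite sides.

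The second comparison asked how loss of Rad9 changed the family. Bmf was lower in all 4 R9del libraries than in their R9wt partners, Mcl1 was lower by a smaller amount, and Bcl2l1 was higher at D1 alone. None of the members passed an adjusted p of 0.05 in edgeR's QL test, beside 2.04% of all genes tested. At an unadjusted p under 0.05 it called 1 member, Bmf, beside 20.4% of all genes, and at the threshold of the study it called 0, beside 13.9%. For 0 members did the R9del and R9wt libraries not overlap, beside 14.4% of all genes. The median log2 fold change of the members was 0.14, against -0.07 over all genes. When the pairs were blocked the count of members remained 0, while the share of all genes called was 8.41%.

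Bmf had 15.9, 15.2, 17.0 and 10.9 CPM in the R9wt libraries of space D1, ground D1, space D5 and ground D5, and 11.2, 8.64, 10.5 and 7.68 CPM in the R9del libraries in the same order. Each R9del library had 0.568 to 0.708 of the Bmf level of its R9wt partner, and the groups overlapped narrowly, since space R9del D1 was above ground R9wt D5. The log2 fold change was -0.64 (SE 0.27, 95% CI -1.24 to -0.03, adjusted p = 0.222 in edgeR's QL test, 0.108 to 0.455 over the alternatives). Of the longest Bmf transcript, 7.26% matched another place in the genome at 95% identity or more, so a part of its reads could have been assigned elsewhere.

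Mcl1 was lower in R9del in all 4 pairs, at 0.725 to 0.931 of its R9wt partner, with a log2 fold change of -0.29 (SE 0.24, 95% CI -0.83 to 0.26, adjusted p = 0.548 in edgeR's QL test). When single libraries were left out this log2 fold change lay between -0.36 and -0.14. Taken with the space values, the order of the Mcl1 levels was the same at D1 and D5: ground R9wt highest, then ground R9del, then space R9wt, and space R9del lowest. The lowest Mcl1 level of all, 122 CPM, was that of the space R9del D5 library.

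The third comparison set D5 against D1, and in it none of the members passed any of the thresholds. In edgeR's QL test 0 of the 10 members passed an adjusted p of 0.05, beside 0.0% of all genes tested. At an unadjusted p under 0.05 there were also 0 members, beside 4.31% of genes, 0 at the threshold of the study, beside 3.44%, and 0 with groups that did not overlap, beside 2.83%. DESeq2's Wald test and edgeR's exact test called 0 members as well at an adjusted p of 0.05, beside 0.438% and 0.175% of all genes. The log2 fold change was 0.34 for Bcl2l1 and -0.34 for Bok, with 95% intervals of -0.59 to 1.27 and -1.68 to 1.00, which leave room for changes of 2-fold and more. These values moved when single libraries were left out. For Bcl2l1 the value was 0.09 without ground R9wt D1 and 0.80 without space R9del D1, for Bok it lay between -0.72 and 0.15, and for Bcl2, at -0.31 with all libraries, between -0.91 and -0.01. Mcl1 was lower at D5 in all 4 pairs (log2 fold change -0.20, SE 0.27), by as little as a ratio of 0.964 in ground R9del and as much as 0.667 in space R9del. Its log2 fold change was -0.04 without space R9del D5, -0.08 without ground R9wt D1 and -0.38 without ground R9wt D5.

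**Figure D3:**
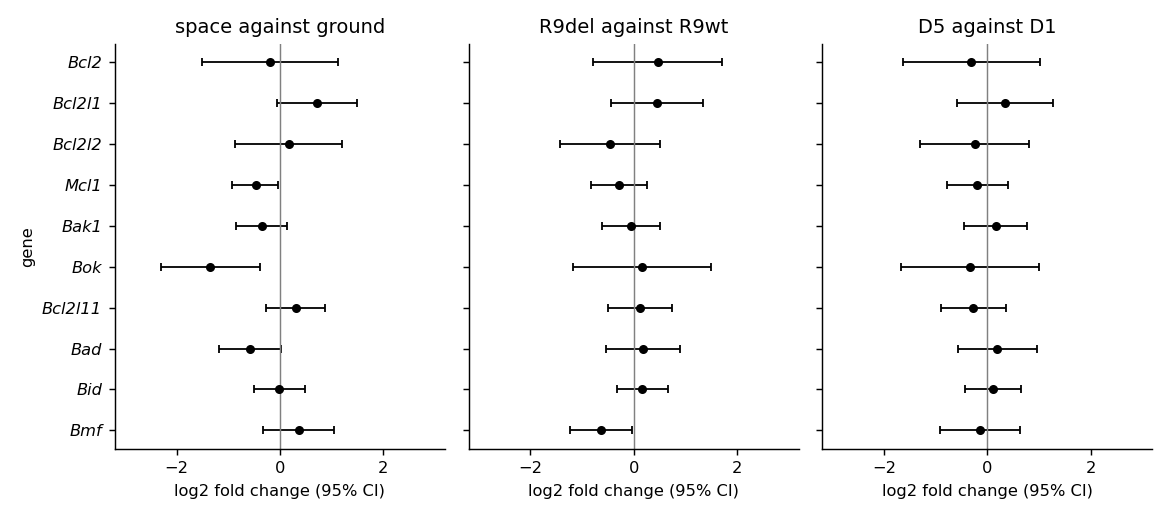
Log2 fold change with its 95% confidence interval for each gene in the comparisons of location, genotype and culture duration, 4 libraries against 4, from edgeR's QL fit. The intervals of Mcl1 and Bok in space against ground and of Bmf in R9del against R9wt leave out 0, and none of these passed an adjusted p of 0.05.

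The ratios of Bcl2l1 and Bok between D5 and D1 were not alike in the 2 genotypes, although the QL test of this difference did not pass for either gene. In R9wt cells Bcl2l1 was 2.28 times as high at D5 as at D1 in space and 2.41 times on the ground, whereas in R9del cells the ratios were 0.801 and 0.898. Seen the other way, R9del had 2.54 and 2.38 times the R9wt level at D1 in space and on the ground, and 0.894 and 0.887 times at D5. The R9wt D1 libraries of both locations were the 2 lowest of the 8. At D5 the genotypes also differed in the number of cells seeded, and the part of this in the Bcl2l1 and Bok ratios was not tested.

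The interaction of genotype and culture duration for Bcl2l1 was -1.47 on the log2 scale (SE 0.33, 95% CI -2.24 to -0.70) with an adjusted p of 0.614 in edgeR's QL test. Over all genes 0.0% passed an adjusted p of 0.05 for this interaction. DESeq2's Wald test gave -1.48 (SE 0.38, adjusted p = 0.0180) and called Bcl2l1 as its only member, beside 0.688% of all genes. At an unadjusted p under 0.05 the QL test called 2 members, Bcl2l1 and Bok, beside 4.33% of all genes. Without location as a covariate it called 0 members at that level, beside 3.21% of all genes, with interactions of -1.48 for Bcl2l1 (95% CI -2.99 to 0.04) and 1.76 for Bok (95% CI -0.96 to 4.48).

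For Bok the genotype ratio was above 1 at D5 and below 1 at D1. At D5 the R9del libraries had 2.30 times the R9wt level in space and 2.23 times on the ground, and at D1 they had 0.49 and 0.714 times. Its interaction of genotype and culture duration was 1.88 on the log2 scale (SE 0.65, 95% CI 0.37 to 3.38), with an adjusted p of 1.0 in edgeR's QL test. The 45.3 CPM of the ground R9wt D1 library were far above the other R9wt libraries, which had 8.93 to 14.7 CPM. The sums of the trophoblast and neural markers, held largely by Krt8, Krt18 and Tubb3, differed between the same groups, as given above. The part of these markers in the Bcl2l1 and Bok values was not tested.

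No member passed an adjusted p of 0.05 for the interaction of location and genotype, beside 0.0% of all genes, or for that of location and culture duration, beside 0.00441%. At an unadjusted p under 0.05 both again called 0 members, beside 3.12% and 6.48% of genes. DESeq2's Wald test also called 0 in both at an adjusted p of 0.05, beside 0.15% and 0.331% of all genes. The interaction of location and genotype was 0.09 for Bcl2l1 (95% CI -1.37 to 1.54) and 0.03 for Mcl1 (95% CI -0.76 to 0.82), both on the log2 scale, and the interval of Bcl2l1 still holds differences of more than 2-fold in either direction.

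**Figure D4:**
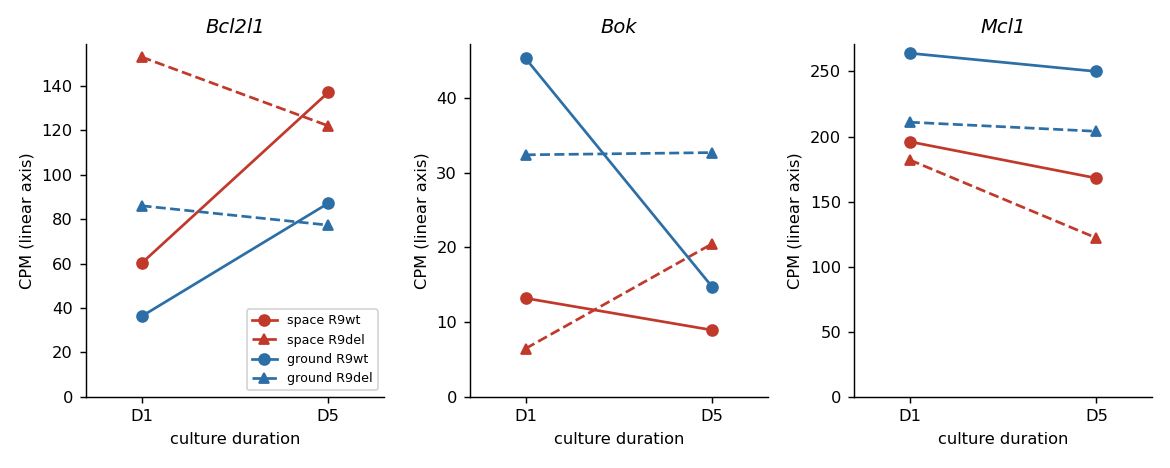
CPM of Bcl2l1, Bok and Mcl1 at D1 and D5 (linear axes from 0), red for space and blue for ground, with solid lines for R9wt and dashed lines for R9del; each point is 1 library. The R9wt lines of Bcl2l1 run from 60.1 to 137 and from 36.2 to 87.1 CPM while its R9del lines slope down, and the 4 Mcl1 lines do not cross.

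Single libraries that differ in 1 variable give no replicate error, and their ratios are a description. The 9 members that reached 1 CPM in some library, all but Bcl2, gave 36 ratios in each comparison. Between space and ground 4 of the 36 were past 2-fold (Bok in 2, Bcl2l11 and Bcl2l2 in 1 each), beside 29.1% over all genes. Between the genotypes there were 6 of 36 (Bok in 3, Bcl2l1 in 2, Bcl2l2 in 1), beside 29.0%, and between D5 and D1 5 of 36 (Bcl2l1 and Bok in 2 each, Bcl2l2 in 1), beside 21.6%. Mcl1, Bak1, Bad, Bid and Bmf were past 2-fold in none of the 12 comparisons. At 1.5-fold the counts were 17 of 36 between space and ground, beside 50.0% over all genes, 9 of 36 between the genotypes, beside 49.6%, and 8 of 36 between D5 and D1, beside 39.7%.

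Across the 8 libraries some members followed each other. Of the 36 pairs among the 9 members with a mean log2 CPM of at least 1, Bak1 and Bcl2l11 had the strongest relation, a negative one (Pearson's r = -0.935 and Spearman's rho = -0.929 over 8 libraries, r = -0.891 without the 2 libraries farthest from the median of Bak1). Bcl2l1 and Bok had r = -0.721, which fell to -0.306 without 2 libraries, and the highest positive r was 0.647 for Bak1 and Bad (rho = 0.452, r = 0.464 without 2 libraries), while rho was higher for Bak1 and Bok, at 0.714. The libraries share the same conditions and depths across genes, so these values only describe how levels ran together.

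Outside the family, the gene most like each member over the 8 libraries among 12390 genes was Dysf for Bcl2l1 (r = 0.969), Srp14 for Bcl2l2 (r = 0.958), Lrch2 for Mcl1 (r = 0.976), Gm3788 for Bak1 (r = 0.975) and Tomm5 for Bok (r = 0.935). For the BH3-only genes it was Nipbl for Bcl2l11 (r = 0.967), Rdh10 for Bad (r = 0.964), 2210010C17Rik for Bid (r = 0.969) and Grb10 for Bmf (r = 0.984). The highest of 12390 correlations over 8 libraries is large by selection.

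The rest of the mitochondrial and death receptor pathway was read from a list of 57 genes, of which 55 were in the count table and 52 were tested. In space, 1 rose and 3 fell at an adjusted p under 0.05 in edgeR's QL test, so 4 of 52 passed where 6.28% of all genes did, a share close to the background. The median log2 fold change of the list was 0.06. Tnfrsf10b, the death receptor for TRAIL, rose from 32.6 to 42.2 CPM on the ground to 67.3 to 132 CPM in space (log2 fold change 1.38, SE 0.24, adjusted p = 0.00759). The 3 that fell were Endog, a mitochondrial nuclease, Bbc3, which codes for the BH3-only protein Puma, and Cycs, which codes for cytochrome c.

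Endog had 0.699 to 1.69 CPM in space and 3.45 to 11.8 CPM on the ground (log2 fold change -2.93, SE 0.50, adjusted p = 0.00602). Bbc3 had 13.1 to 34.1 CPM in space and 53.5 to 250 CPM on the ground (-2.54, SE 0.49, adjusted p = 0.0126). Its values in space and on the ground lay closer at D1 (34.1 and 81.5 CPM in R9wt, 26.0 and 53.5 CPM in R9del) than at D5 (13.1 and 250 CPM in R9wt, 20.9 and 160 CPM in R9del). The interaction of location and culture duration for Bbc3 was -2.38 on the log2 scale (SE 0.50, 95% CI -3.53 to -1.23), with an adjusted p of 0.738 in the QL test and 0.0113 in DESeq2's Wald test, which called 0.331% of all genes. Cycs had 64.6 to 127 CPM in space and 200 to 323 CPM on the ground (-1.29, SE 0.26, adjusted p = 0.0148). For all 4 genes the space and ground libraries did not overlap, as was the case for 14.6% of all genes tested. The 4 were picked by adjusted p on the same values, so this adds no support. Other genes of the list that did not pass, Bcl2l13 among them, also did not overlap. Cycs lost its call without the space R9wt D5 library (adjusted p = 0.0626), and the other 3 kept theirs without any single library. Reads of Tnfrsf10b and Cycs are uncertain, since 70.8% and 45.2% of their longest transcripts matched other places in the genome at 95% identity or more, and 35.7% of the Endog exon length overlaps another gene on the opposite strand. Endog and Bbc3 have a transcript GC content of 64.3% and 65.2%, in the same bin as Bok, and Cycs, at 40.8%, is in the lowest bin, where the median log2 fold change was -0.22.

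Over all 20544 genes tested 226 rose and 1064 fell in space. Among the calls in the list, of the 9 genes of the apoptosome and mitochondria 2 fell and 0 rose, of 11 other Bcl2 family genes tested 1 fell and 0 rose, of 8 death receptor genes 1 rose and 0 fell, and of 6 caspases, 5 inhibitor of apoptosis genes and 13 regulators of the members none passed, and differences between these classes were not tested. Bax, the partner of Bak1 in pore formation, was at 126 ± 32.5 CPM in space and 209 ± 34.4 CPM on the ground (SD, n = 4 each), lower in all 4 pairs with a log2 fold change of -0.73 (SE 0.22, adjusted p = 0.0965, edgeR), and is named here although it did not pass. It passed with the other 2 variables as covariates (adjusted p = 0.0458) and without the space R9del D5 library (0.0446). Its transcript GC content of 62.6% is also in the highest bin. Bcl2l13, another Bcl2 family gene, and Pim1 came closer to the threshold without passing it (adjusted p = 0.0918 for each, edgeR's QL test). Bcl2l13 was higher in space in all 4 pairs (76.9 against 51.5 CPM, log2 fold change 0.58). Pim1 was lower in all 4 pairs (52.9 against 146 CPM, log2 fold change -1.47).

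In R9del cells 1 gene of the list rose and 1 fell, 2 of 52 where 2.04% of all genes passed. Fbxw7, part of a ubiquitin ligase that marks Mcl1 protein for degradation, had 111 to 165 CPM in R9del and 38.1 to 72.9 CPM in R9wt (log2 fold change 1.39, SE 0.26, adjusted p = 0.0404 in edgeR's QL test). Hrk, a BH3-only gene known from neuronal apoptosis, had 1.45 to 2.46 CPM in R9del and 4.93 to 11.7 CPM in R9wt (-2.14, SE 0.42, adjusted p = 0.0421). Neither gene overlapped between the genotypes, as was the case for 14.4% of all genes tested. Both were picked by adjusted p on the same values, so this adds no support. Both calls were close to the threshold: Fbxw7 kept its call without 2 of the 8 libraries (ground R9wt D1 or space R9wt D5) and lost it without any of the other 6, with adjusted p up to 0.118, and Hrk kept it without ground R9wt D1 alone, with adjusted p up to 0.127 otherwise. The fold changes stayed at 1.25 to 1.62 for Fbxw7 and -2.32 to -1.92 for Hrk on the log2 scale, and in 4 of the 8 fits that leave out a library none of all genes passed. Without the filter on low counts both were lost (adjusted p = 0.0522 and 0.0551). With the pairs blocked 5 genes of the list passed, beside 8.41% of all genes, Fbxw7 and Ripk1 higher and Hrk, Huwe1 and Casp6 lower. Between D5 and D1, 0 of the 52 genes passed an adjusted p of 0.05, and 2 had an unadjusted p under 0.05, where 4.31% of all genes did.

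**Figure D5:**
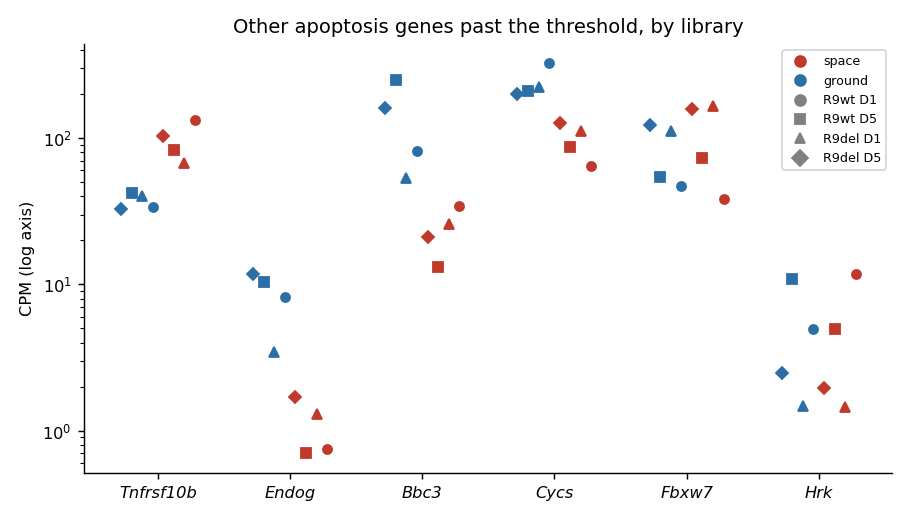
CPM (log axis) in the 8 libraries of the 6 genes of the pathway list that passed an adjusted p of 0.05, red for space and blue for ground, with the symbol giving genotype and culture duration. Tnfrsf10b is at 67.3 CPM or more in every space library, Endog, Bbc3 and Cycs are lower in every space library than in any ground library, and Fbxw7 and Hrk separate by genotype.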

How the data were processed

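Total RNA of the 8 mESC cultures was made into mRNA libraries and sequenced from both ends. The authors aligned them to mm9 with TopHat2 2.0.9 and deposited raw read counts per Ensembl gene, with no normalization. The counting program, the annotation behind it and the use of strand are not given in the sources used here, so reads of overlapping or antisense genes may be shared: 25.8% of the exon length of Bad, 17.7% of Bid, 14.8% of Bak1, 13.3% of Bcl2l2 and 7.76% of Bcl2 overlaps another gene. All columns of per-sample values were used. Library totals were 58238440 to 96416907 counts.

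From these counts, TMM factors were computed with edgeR 4.0.16 (R 4.3.3) over genes that reached 1 CPM in 1 or more libraries. Group comparisons used edgeR's quasi-likelihood test on the 20544 genes kept by filterByExpr with a minimum count of 10, and interactions were fitted with the third variable as a covariate over 22659 genes. P-values were adjusted over all genes tested by the Benjamini-Hochberg method and called under 0.05. The procedure was tested on simulated data with known fold changes, drawn as replicate libraries without effects of the other 2 variables. This simulation therefore does not show how the test behaves with 1 library per condition. Log2 CPM used a prior count of 2. Symbols, exons and coding sequences came from the GENCODE annotation of mm9, which names 64.6% of the table's genes and 97.1% of the counts, and copies were searched with BLAST 2.17.0 for matches of at least 50 bases. Alternatives were other scalings, no filter, edgeR's exact test, DESeq2 1.42.0, matched pairs as a block, covariates, a fold of 1.5 and leaving out each library.

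Libraries that share the other 2 conditions were paired by these conditions as the labels give them. Their deviations from the group means correlated at 0.283 to 0.609 for location, 0.347 to 0.488 for genotype and 0.375 to 0.575 for culture duration, against -0.124, -0.128 and -0.152 for other pairings, so blocked values are given where they change a call.

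The members, lists and tests were chosen with earlier results of these data known. The named genes are the 10 members, the pathway genes with an adjusted p under 0.05 (at most 4 in each direction), the gene most correlated with each member and Rad9a. Bax, single markers and further genes called under an alternative were named after their values were seen.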

Additional observations from a re-analysis of the deposited data

Results flagged for a closer look

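In the ground R9wt D1 library Bok was at 45.3 CPM, far from the other 3 R9wt libraries, which lay between 8.93 and 14.7 CPM. The gap to the nearest of them made up 0.841 of the whole range, above Dixon's 95% critical value for 4 samples. This was 1 of 60 groups of 4 libraries examined for the members, and chance alone marks about 1 in 20 such groups. The 4 R9wt libraries differ in location and culture duration, so this library is also the only ground D1 library among them.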

How the results depend on the processing

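The group comparisons were recomputed with 2 other scalings, without the filter on low counts, with 2 other tests, with a replicate block of matched pairs, with covariates and without each library. Of 450 alternative values of the members' fold changes, 423 kept their direction and their side of the threshold, 5 passed it newly and 22 turned direction. The count of members changed between space and ground was 0 in the quasi-likelihood test. It was 1 with the exact test and 1 with the Wald test (Bok in both, beside 8.71% and 11.6% of all genes), and 2 with the block (8.69%). When each library was left out it was 0 to 1, beside 3.93% to 5.82% of all genes. In the group comparisons the block changed no other call of a member. For genotype by culture duration the Wald test called 1 member (0.688% of all genes) and the fit without the covariate 0, also at an unadjusted p.

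Directions turned in values that had not passed the test, some of them not near 0 (Bok at D5, -0.34). Between space and ground these were Bcl2 (0.02 with the replicate block) and Bid (0.04 when scaled by DESeq2, 0.05 by library size alone, 0.04 in the Wald test). Bak1 in R9del was at 0.04 with library size alone. Leaving out libraries gave in space -0.51 to 0.18 for Bcl2, -0.11 to 0.39 for Bcl2l2 and -0.12 to 0.11 for Bid, in R9del -0.21 to 0.09 for Bak1, -0.05 to 0.91 for Bok and -0.02 to 0.34 for Bcl2l11, and at D5 -0.51 to 0.04 for Bcl2l2, -0.72 to 0.15 for Bok and -0.40 to 0.01 for Bmf. The cause of these turns was not tested.

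The count of pathway genes in space was 4 in the quasi-likelihood test. It was 5 with the exact test (Pim1 added), 6 with the Wald test (Pim1 and Bcl2l13 added) and 5 with covariates (Bax added). The share of all genes called went from 6.28% to 8.71%, 11.6% and 10.4% in the same order. Without single libraries the count was 3 to 5, beside 3.93% to 5.82% of all genes. In R9del this count, 2 in the quasi-likelihood test, was 0 without the filter, 4 with the exact test, 5 with the Wald test, 5 with the replicate block, 4 with covariates and 0 to 2 without single libraries, and the share of all genes went from 2.04% to 0.443%, 7.07%, 9.91%, 8.41%, 7.42% and 0.0% to 2.54% in the same order. At a fold of 1.5 in place of 2, 17 of 36 single-library ratios between space and ground were past it (50.0% over all genes), 9 of 36 between the genotypes (49.6%) and 8 of 36 between D5 and D1 (39.7%). With 1 library per condition, intervals of the smaller members hold changes of 2-fold, and Bcl2 rests on 13 to 69 counts per library.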
